A study of Homo sapiens and Mus musculus with 6 samples.

Results

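*Trans*-chromosomal Hi-C contacts that touched the centromere end of a mouse chromosome were examined in mouse embryonic stem cells (mESCs). Mouse chromosomes start at the centromere, so a 1-Mb bin was taken to lie near it when its start was under 10 Mb, and a pair of bins on different chromosomes was a member when at least 1 of its bins did. The list of interacting bin pairs that the authors deposited held 1511 such pairs, each counted once, among 10899 *trans*-chromosomal pairs and 25147 pairs in all. Both bins were near the centromere end in 242 of them, and 1 bin was in 1269. Pairs were further split by chromosomes 12, 15, 16, 18 and 19, taken as the chromosomes that bear ribosomal DNA (rDNA). That set was not given by the sample labels and was not checked for the strain of these cells.

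The cells were J1 mESCs of strain 129S4/SvJae, grown untreated on irradiated fibroblasts that were removed before harvest, and crosslinked with formaldehyde. Hi-C, which ligates and sequences DNA ends that lie close together in the nucleus, was made with HindIII as 1 library, so no replicate spread exists and no condition was compared. Promoter Capture Hi-C (CHi-C), which enriches such a library for fragments that carry promoters, came from 2 replicates of the same cell type that the authors pooled into 1 set of calls. Reads were mapped to mm9, which represents another strain. Neither assay measures expression, so the label of the cells was not checked against markers.

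Nearly all mouse chromosomes carry their centromere at one extreme end, flanked by satellite repeats that are largely absent from the assembled sequence. In interphase nuclei, the pericentromeric satellites of several chromosomes gather in dense foci called chromocentres, and the rDNA arrays, where ribosomal RNA is made, lie close to the centromere of the chromosomes that bear them and form nucleoli. The measured bins therefore report mainly on the assembled sequence next to these repeats, not on the bulk of the repeats. In mm9, sequence started at 3 Mb on 20 of the 21 chromosomes, so the bin at 3 Mb was the one next to the centromeric gap.

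A few stretches of sequence that bins at 3 Mb share are shown first. Of the 10 pairs with the highest ratios among called pairs with 2 near bins, 8 joined such bins. The stretches are examples from among these 8, not chosen by a rule set in advance. Of all 12 pairs of bins at 3 Mb with an alignment of at least 10 kb, 4 were called. Each stretch shown is a window of 100 bases without gaps, in mm9 (NCBIM37). It was taken nearest the middle of the longest alignment of at least 10 kb between the bins. Capitals mark bases that differ. The bins of chromosomes 16 and 19 shared 79737 aligned bases at 98.6% identity (chr16:3000001-3079736, and chr19:3000001-3078636 on the minus strand), and all 100 bases of the window were the same, so it is printed once. The bins of chromosomes 4 and 6 shared 12188 aligned bases at 91.1% identity, and 98 of the 100 bases in their window were the same. Those of chromosomes 12 and 17 shared 11461 aligned bases at 91.6% identity, with 97 same bases in the window. Copies of these stretches elsewhere in the genome were not searched for, so they cannot be taken as particular to these bins.
chr16:3050134-3050233, plus strand, same as chr19:3029504-3029603, minus strand: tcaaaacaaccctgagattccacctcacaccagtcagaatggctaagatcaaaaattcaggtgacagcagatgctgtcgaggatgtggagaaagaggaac
chr4:3098708-3098807, plus strand: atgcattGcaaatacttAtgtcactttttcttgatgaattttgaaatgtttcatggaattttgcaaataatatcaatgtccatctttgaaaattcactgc
chr6:3094985-3095084, minus strand: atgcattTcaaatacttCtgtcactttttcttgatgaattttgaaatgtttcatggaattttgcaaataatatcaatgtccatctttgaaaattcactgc
chr12:3190237-3190336, plus strand: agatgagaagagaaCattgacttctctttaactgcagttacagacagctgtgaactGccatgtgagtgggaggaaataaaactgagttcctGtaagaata
chr17:3182041-3182140, plus strand: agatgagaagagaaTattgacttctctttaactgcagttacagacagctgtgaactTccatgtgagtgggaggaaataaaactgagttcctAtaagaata

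Pairs of centromere ends were called far more often than all possible *trans*-chromosomal pairs together. A pair was called when its false discovery rate (FDR), as deposited, was under 0.05, and shares were taken of all possible *trans*-chromosomal pairs among the 2527 bins that occur in the list. Over all such pairs the share called was 0.233%, or 7060 of 3024125. With both bins near the centromere end, 156 of 8275 pairs were called, which is 1.89% (Wilson 95% interval 1.61 to 2.20). With 1 bin near, 814 of 300726 were called, or 0.271% (0.253 to 0.290), and with neither, 6090 of 2715124, or 0.224% (0.219 to 0.230). The share for 2 near bins was thus 8.40 times that for none, and the share for 1 near bin 1.21 times. These intervals cover counting error alone, since bins share chromosomes and are not replicates. A pair outside the list lay under the caller's thresholds and cannot be read as absent.

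Among listed *trans*-chromosomal pairs 64.8% were called, with 64.5% of listed pairs with 2 near bins, 64.1% of those with 1, and 64.9% of those with none. The median ratio of observed to expected read pairs in called pairs was 2.19 for 2 near bins, 2.17 for 1 and 2.17 for none. A ratio of at least 3 was found in 12.8%, 10.6% and 7.95% of the called pairs of these classes. All of these values are taken among pairs that had passed the caller's thresholds, which set a lower limit to the ratio.

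The opposite chromosome ends behaved alike among themselves, but the 2 kinds of end seldom met. Where both bins lay in the last 10 Mb of their chromosomes, 359 of 18059 pairs were called, or 1.99% (1.79 to 2.20), so its interval overlapped that of 2 near bins. More than 9 protein-coding gene starts were found in 37.4% of bins in the last 10 Mb and in 25.8% of near bins. The part of gene density in these shares was not tested. Where 1 bin was near the centromere end and the other in the last 10 Mb, the share was 0.123% (30 of 24480, interval 0.0859 to 0.175), below the 0.284% of pairs joining a near bin to a bin in between and below the genome-wide 0.233%. Of these 30 calls, 25 came from 3 bins, those at 4 to 6 Mb of chromosome 19. Without the bins at 4 to 6 Mb of chromosomes 11 and 19, an alternative chosen after the data were seen, the share was 0.0214% (5 of 23370, 0.00914 to 0.0501), against 0.170% for a near bin with a bin in between (448 of 263478).

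**Figure D1:**
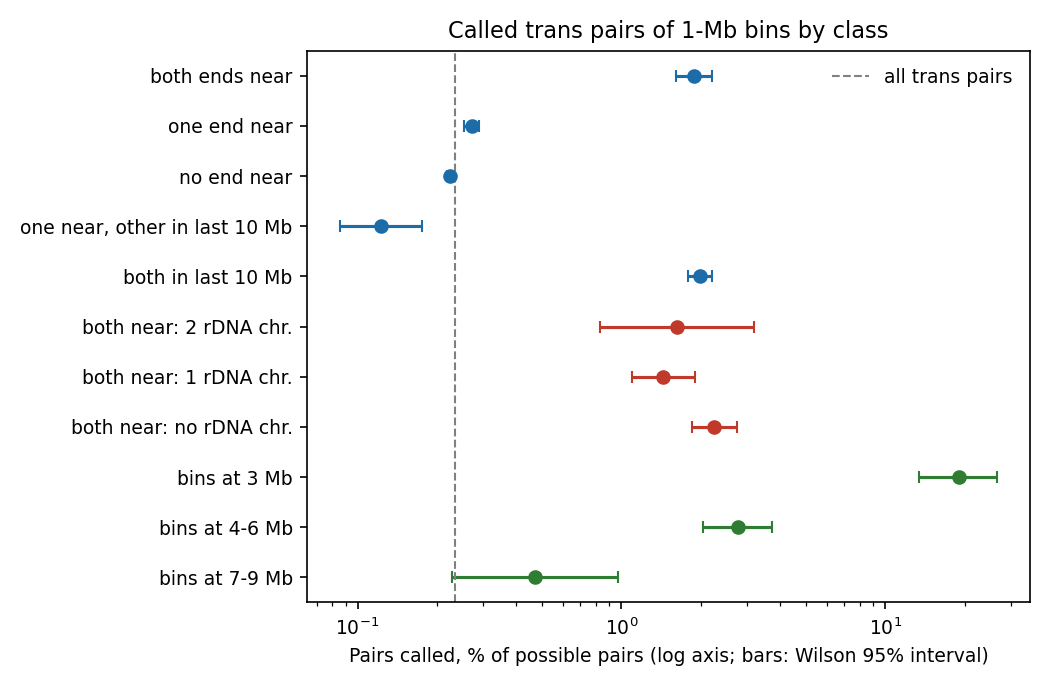
Share of possible *trans*-chromosomal bin pairs that were called (percent, log axis), for each class of pair. Points are shares, bars Wilson 95% intervals and the dashed line the share over all pairs. Pairs with both bins near the centromere end and pairs with both in the last 10 Mb lay near 2%, mixed pairs at 0.123%, and pairs of 2 bins at 3 Mb at 19.1%.

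Contacts among centromere ends were most frequent next to the gap and fell away within a few megabases. Of the 136 pairs of bins at 3 Mb, on the 17 chromosomes where that bin was listed, 26 were called, or 19.1% (13.4 to 26.5). Pairs of a bin at 3 Mb with one at 4 to 9 Mb gave 2.88% (52 of 1805, 2.20 to 3.76). Among bins at 4 to 6 Mb the share was 2.76% (41 of 1485, 2.04 to 3.72), and among bins at 7 to 9 Mb it was 0.471% (7 of 1485, 0.229 to 0.970), where the interval reached down to the genome-wide 0.233%. The gradient did not extend to contacts with the rest of the genome, because bins at 3 Mb were joined to bins from 10 Mb on in 0.227% of pairs (88 of 38684), close to the genome-wide share. Bins with more than 9 protein-coding gene starts fell in the same order, from 47.1% at 3 Mb to 25.0% at 4 to 6 Mb and 21.4% at 7 to 9 Mb. Bins at 4 to 6 Mb also include those of chromosomes 11 and 19 with many partners, described below. The part of either in the gradient was not tested.

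Ratios also were higher in the called pairs of bins at 3 Mb, with a median of 2.79. Their median of expected read pairs was lower, at 12.7 against 16.3 in all called *trans*-chromosomal pairs. A call needed a higher ratio where fewer read pairs were expected. At 3 Mb, chromosomes 4 and 16 were not called at a ratio of 2.34 with 8.12 expected, whereas chromosomes 8 and 17 were called at 2.03 with 19.7 expected. Of the 20 called pairs with 2 near bins and a ratio of at least 3, 12 joined 2 bins at 3 Mb, 3 joined 1 bin at 3 Mb to another near bin, 3 involved chromosome Y and 2 had neither. Leaving out all bins at 3 Mb lowered the share for 2 near bins to 1.24% (78 of 6283), still 5.53 times the share for none. Read ends per bin, which enter the caller's expectation, were lower at 3 Mb, with a median of 51734 against 63524 over all bins.

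**Figure D2:**
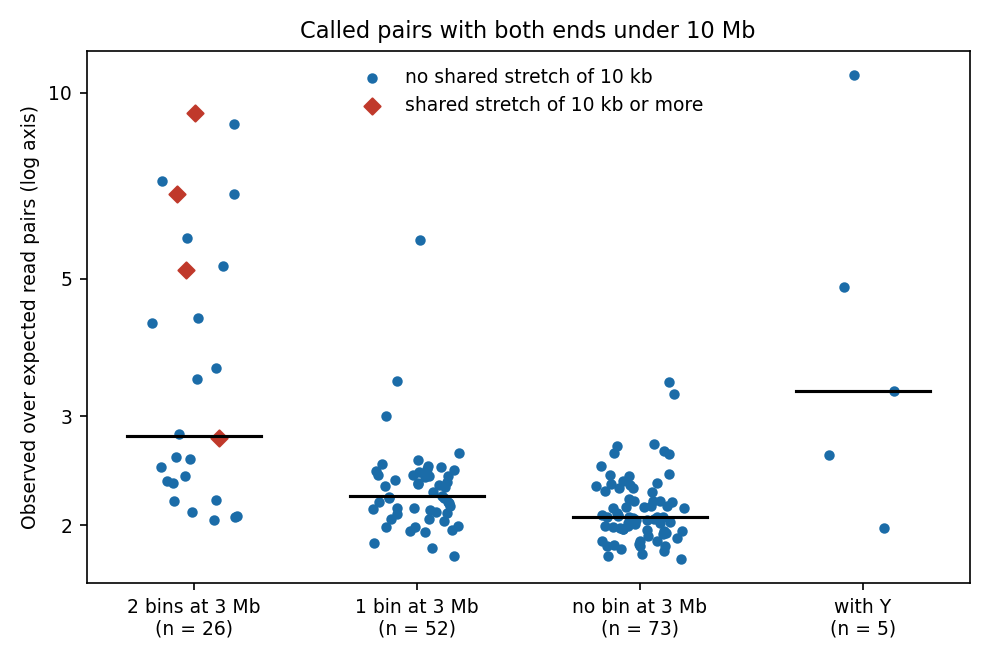
Observed over expected read pairs (log axis) of the 156 called pairs with both bins near the centromere end, by whether both, 1 or neither bin started at 3 Mb, with pairs of chromosome Y apart. Each point is a pair, black lines are medians, and diamonds mark pairs that share a stretch of at least 10 kb. Pairs of 2 bins at 3 Mb had a median of 2.79, and 3 of their 4 diamonds lay above 5.

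Among called pairs with 2 near bins, 4 of the 10 with the highest ratios held the bin at 3 Mb of chromosome 4 (chr4:3000001-4000000). This bin holds *Lyn*, which encodes a Src-family kinase, *Mos*, a kinase that arrests the mature oocyte, *Plag1*, a zinc finger transcription factor, and *Rps20*, a ribosomal protein gene. It met the bin at 3 Mb of chromosome 6 with 94 read pairs where 10.2 were expected, a ratio of 9.26 (exact Poisson 95% interval 7.48 to 11.3). The chromosome 6 bin holds *Calcr*, the calcitonin receptor gene, and *Tfpi2*, which encodes a protease inhibitor. With the bin at 3 Mb of chromosome 8, where the insulin receptor gene *Insr* and *Retn*, which encodes the hormone resistin, start, it had 120 read pairs against 13.5 expected (ratio 8.90, 7.38 to 10.6). With that of chromosome 15, where the growth hormone receptor gene *Ghr* starts, it had 78 against 10.8 (ratio 7.20, 5.69 to 8.98), and with that of chromosome 13, which holds *Gdi2* and *Net1*, 56 against 9.63 (ratio 5.82, 4.39 to 7.55). In all, 14 of its 17 called *trans*-chromosomal partners were near a centromere end. A bin of 1 Mb gives no value to any gene in it, and genes are named here only to say where the bins lie.

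Further pairs among these 10 joined rDNA bearing chromosomes to each other and to others. The bin at 3 Mb of chromosome 18, with the cAMP response gene *Crem* and the ubiquitin ligase gene *Cul2*, met that of chromosome 13 with 76 read pairs against 11.1 expected (ratio 6.87, 5.41 to 8.60). It met that of chromosome 16, which holds *Mefv* and *Nlrc3*, both of the innate immune system, with 49 against 9.33 (ratio 5.25, 3.88 to 6.94). Chromosome 16 in turn met chromosome 19, whose bin at 3 Mb holds the Wnt co-receptor gene *Lrp5* and *Cpt1a*, the gate enzyme of mitochondrial fatty acid oxidation, with 73 against 10.6 (ratio 6.85, 5.37 to 8.62). The bin at 3 Mb of chromosome 12, with the de novo DNA methyltransferase gene *Dnmt3a* and the hormone precursor gene *Pomc*, met that of chromosome 17 with 77 against 14.9 (ratio 5.17, 4.08 to 6.46). A single pair of this rank joined a bin at 3 Mb to a later one: chromosome 5 at 3 Mb, with the cell cycle kinase gene *Cdk6*, and chromosome 8 at 4 Mb, with the stress kinase gene *Map2k7*, had 99 against 17.1 (ratio 5.77, 4.69 to 7.03).

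Bins at 3 Mb did not take part evenly. Chromosomes 4, 5, 8 and 17 had 6 called contacts each with the 16 others, chromosome 13 had 5, and chromosomes 6, 15, 16 and 18 had 4. Chromosomes 2, 7 and 12 had 2 and chromosome 19 had 1, while the bins of chromosomes 1, 3, 9 and 10 had none. Over the 17 bins at 3 Mb, Spearman's rho between all called *trans*-chromosomal partners and protein-coding genes was 0.43. With GC content it was 0.49 and with read ends 0.18.

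Bins at 3 Mb often shared sequence, and its part in the contacts was not tested. Alignments of at least 10 kb and 90% identity joined 12 pairs of near bins, all of them pairs of bins at 3 Mb. Of these 12 pairs, 4 were called (33.3%, interval 13.8 to 60.9), against 22 of the 124 pairs without such an alignment (17.7%, 12.02 to 25.4), so the intervals overlapped widely. With alignments of at least 5 kb the counts were 18 of 78 pairs (23.1%, 15.1 to 33.6) against 8 of 58 (13.8%, 7.16 to 24.9). Of the 12 called pairs of bins at 3 Mb with a ratio of at least 3, 11 had such an alignment. Bins outside 3 Mb also shared stretches of this length. Past the near window, only the called pairs with 1 near bin of highest ratio were aligned. Among these, chromosome Y at 2 Mb and chromosome X at 120 Mb shared 7250 bases, and chromosome 18 at 8 Mb and chromosome 13 at 39 Mb 7155. How often other bin pairs share 5 kb was not counted, so such sharing cannot be taken as particular to bins at 3 Mb. The longest shared stretch, 93958 aligned bases at 92.7% identity between chromosomes 8 and 15 (chr8:3000001-3091187 and chr15:3009287-3100763), belonged to a pair that was not in the list, whereas the next longest, between chromosomes 16 and 19 and shown above, belonged to a pair with a ratio of 6.85. The pair of chromosomes 5 and 17, with 49 read pairs against 17.4 expected (ratio 2.81), had no alignment found between its bins. How reads that fit several places were treated is not given in the sources used here.

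The chromosomes taken as rDNA bearing, a set not checked for this strain, did not show more contacts among their centromere ends than the others did at this window. Of pairs with 2 near bins on 2 such chromosomes, 8 of 490 were called, or 1.63% (0.830 to 3.19). With 1 such chromosome the share was 1.44% (49 of 3395, 1.09 to 1.90), and with neither 2.26% (99 of 4390, 1.86 to 2.74). Outside the window the shares were 0.185% for 2 rDNA bearing chromosomes, 0.195% for 1 and 0.239% for neither. Counted by pairs of chromosomes, 3 of 10, 29 of 80 and 49 of 120 had at least 1 call. Among bins at 3 Mb alone, the counts were 2 of 10, 11 of 60 and 13 of 66.

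The comparison of 2 rDNA bearing chromosomes with neither rested on few calls and turned with the settings. All 8 calls joined chromosomes 16, 18 and 19, with 4 between 16 and 19, so that chromosomes 12 and 15 had none with another of the 5. Leaving out chromosome 16 left 1 call of 294 (0.340%), and leaving out chromosome 12 or 15 turned the ratio of the share to that of other pairs from 0.724 to 1.21. With a window of 5 Mb, the share for 2 rDNA bearing chromosomes was 12.5% (5 of 40) against 7.16% (26 of 363), so the order was reversed, with overlapping intervals of 5.46 to 26.1 and 4.93 to 10.3.

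**Figure D3:**
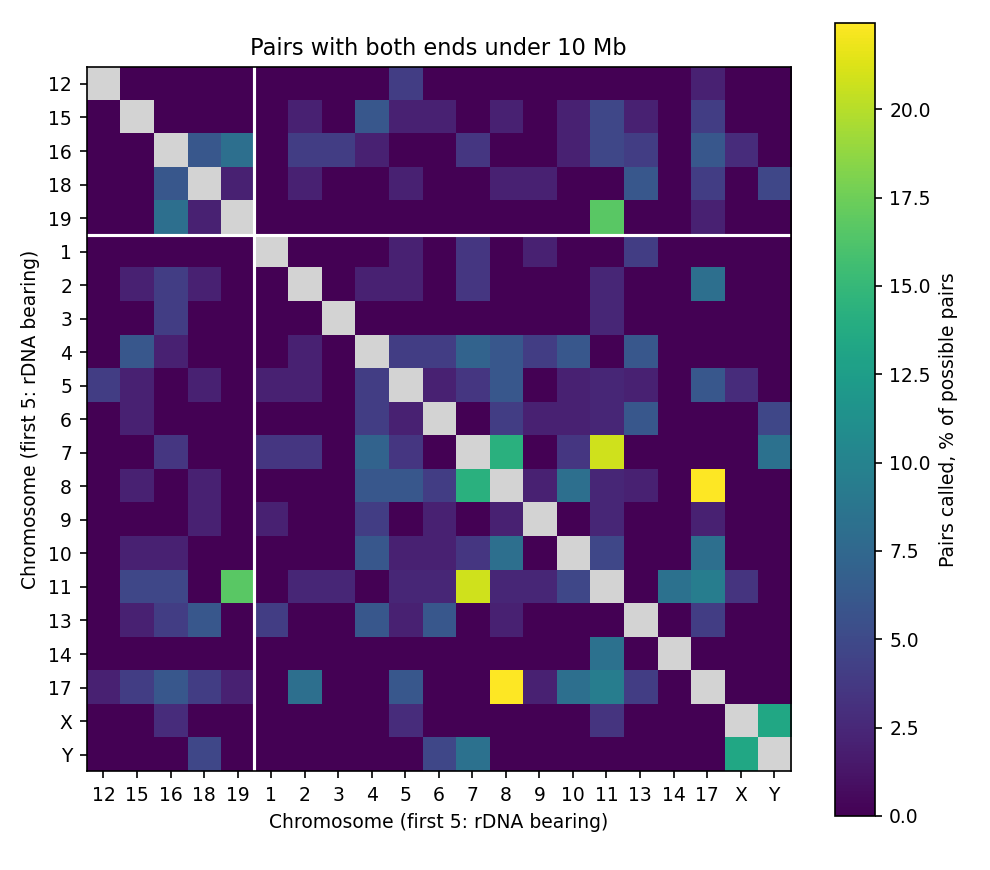
Share of possible bin pairs called for each pair of chromosomes, with both bins under 10 Mb. Rows and columns are chromosomes, the 5 rDNA bearing ones first and set off by white lines, and grey marks a chromosome with itself. The highest share was that of chromosomes 8 and 17 at 22.4%, and most cells are at 0.

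Shares of single pairs of chromosomes ranged more widely than those of these classes. Each rested on few possible pairs, so counting error alone widens that range. The highest share was that of chromosomes 8 and 17, with 11 of 49 pairs called (22.4%, 13.0 to 35.9). Chromosomes 7 and 11 followed with 5 of 24 (20.8%, 9.24 to 40.5), and 11 and 19 with 7 of 42 (16.7%, 8.32 to 30.6). Next were 7 and 8 with 4 of 28 (14.3%, 5.70 to 31.5), and X and Y with 2 of 15 (13.3%, 3.74 to 37.9). At the other end, 129 of the 210 pairs of chromosomes had no call, so no 5 lowest can be singled out. Taken per chromosome against all others, shares ran from 0.343% for chromosomes 3 and 12 to 4.34% for chromosome 17, with 3.97% for chromosome 11 and 3.66% for chromosome 8.

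Pairs with 1 near bin were unevenly spread too. Bins at 4 to 6 Mb of chromosomes 11 and 19 took part in 361 of the 814 called pairs (44.3%). The share was 1.60% (1.42 to 1.81) with the near bin on chromosome 19 and 1.04% (0.880 to 1.22) on chromosome 11, against 0.151% (0.137 to 0.166) on any other chromosome, which is under the genome-wide 0.233%. Without those 6 bins, an alternative added after the data were seen, the share for 1 near bin was 0.158%, below the 0.224% of pairs with none, whereas the share for 2 near bins was 1.71%. Bins with many partners elsewhere in the genome were kept in that comparison. A window of 20 Mb also placed pairs with 1 near bin, at 0.159%, below pairs with none, at 0.242%.

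The higher share of rDNA bearing chromosomes in these pairs rested on chromosome 19. With the near bin on an rDNA bearing chromosome, 371 of 80871 pairs were called (0.459%, 0.414 to 0.508), against 443 of 219855 on another chromosome (0.201%, 0.184 to 0.221). Chromosome 19 gave 263 of the 371. Without it the share was 0.168% (0.139 to 0.202), below the 0.201% on other chromosomes, with overlapping intervals. Chromosome 11 raised the share on other chromosomes, which was 0.146% (0.130 to 0.163) without it.

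Of the 10 near bins with the most partners, most were rich in genes. The bin at 5 Mb of chromosome 19, with 51 protein-coding gene starts, had 107 called *trans*-chromosomal partners, the most of any bin in the genome. It holds *Rela*, which encodes a subunit of NF-kB, *Kat5*, a histone acetyltransferase gene, and *Cfl1*, which encodes the actin-severing protein cofilin. Only 1 of its partners was near a centromere end and 16 were in the last 10 Mb of a chromosome, and 97.2% were gene-dense (more than 9 protein-coding gene starts), as were 31.3% of all listed bins. Its neighbours at 4 Mb, with the protein phosphatase gene *Ppp1ca* and the histone demethylase gene *Kdm2a*, and at 6 Mb, with *Men1*, which encodes menin, and the splicing factor gene *Sf1*, had 73 and 58 partners.

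On chromosome 11, the bin at 4 Mb had 77 called partners, 13 of them near a centromere end. It holds *Lif*, which encodes the cytokine that maintains mESCs in culture, *Osm*, which encodes a related cytokine, and the tumour suppressor gene *Nf2*. The bin at 5 Mb, with *Xbp1*, a regulator of the unfolded protein response, had 54, and the bin at 6 Mb, with *Ogdh* of the citric acid cycle, had 24. The bin at 4 Mb of chromosome 16, with the transcriptional coactivator gene *Crebbp*, had 25.

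Other bins of this rank had fewer genes. The bin at 2 Mb of chromosome Y, with 6 protein-coding genes, had 23 called partners, 21.7% of them near a centromere end. The bin at 3 Mb of chromosome 17 had 32 called partners with only 5 protein-coding genes, among them *Tiam2*, which encodes an activator of Rac, and *Tfb1m*, a mitochondrial rRNA methyltransferase gene, and 53.1% of its partners were near a centromere end. The bin at 3 Mb of chromosome 5 had 22, with 63.6% near. In that of chromosome 4 the share was 82.4%, in contrast to 0.935% in the bin at 5 Mb of chromosome 19. No called partner was found for 6 near bins, those at 6 and 8 Mb of chromosome 1, 4 Mb of chromosome 3, 9 Mb of chromosome 12, and 8 Mb of chromosomes 13 and 14. These hold 0 to 21 protein-coding genes, and the last of them has 22966 read ends, the fewest of the 6.

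**Figure D4:**
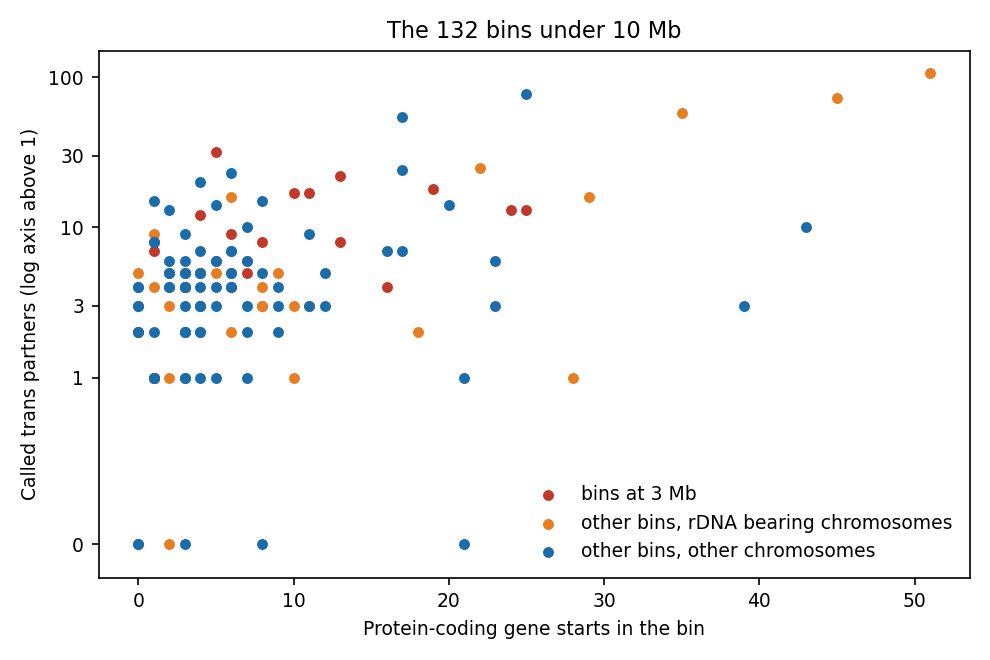
Called *trans*-chromosomal partners (log axis above 1) of each of the 132 near bins against its number of protein-coding gene starts. Colours mark bins at 3 Mb and the other bins of rDNA bearing and other chromosomes (chromosome Y included). Bins with over 50 partners have 17 to 51 genes, whereas bins at 3 Mb reach 32 partners with 5.

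Gene density was set against position directly. Where both bins were gene-dense, 7.27% of pairs with 2 near bins were called (38 of 523), 1.70% of those with 1 and 1.40% of those with none. Where both were gene-poor, with at most 3 protein-coding gene starts, the shares were 1.03% (11 of 1070), 0.124% and 0.0964%. Pairs of a gene-dense and a gene-poor bin gave 0.890%, 0.0828% and 0.0444%. So pairs with 2 near bins had the highest share at each of these densities, and their intervals did not overlap those of pairs with none. Without bins at 3 Mb and chromosome Y, the shares with 2 near bins were 6.33% for 2 gene-dense bins, 1.02% for 2 gene-poor ones and 0.519% for mixed pairs. The gene-dense bins of chromosomes 11 and 19 with many partners, described above, were kept throughout. Their part in the shares of gene-dense and mixed pairs was not tested, whereas pairs of 2 gene-poor bins cannot include them. Over the 132 near bins, Spearman's rho between called partners and protein-coding genes was 0.35, with GC content 0.45 and with read ends 0.39. It was 0.34, 0.33 and 0.26 over the other 2395 bins, and bins of 1 library share its depth and mapping.

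Partners per bin were also followed along the chromosome. The mean was 11.3 in bins at 3 Mb, 14.8 at 4 Mb and 14.4 at 5 Mb, and then fell to 4.00 at 9 Mb and 4.11 at 10 Mb, on the 2 sides of the window's limit. It rose again further along, to 14.2 at 29 Mb. The median was 9 at 3 Mb, 5 at 4 Mb and 3 at 29 Mb. Near bins had a median of 4 partners and all bins a median of 2, with similar numbers of protein-coding genes (mean 8.32 near, 8.66 elsewhere) and of read ends (median 59681.5 near, 63524 over all bins). Just past the window, from 10 to 17 Mb, medians by position were 2.5 to 4, so a median of 4 was not particular to near bins.

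**Figure D5:**
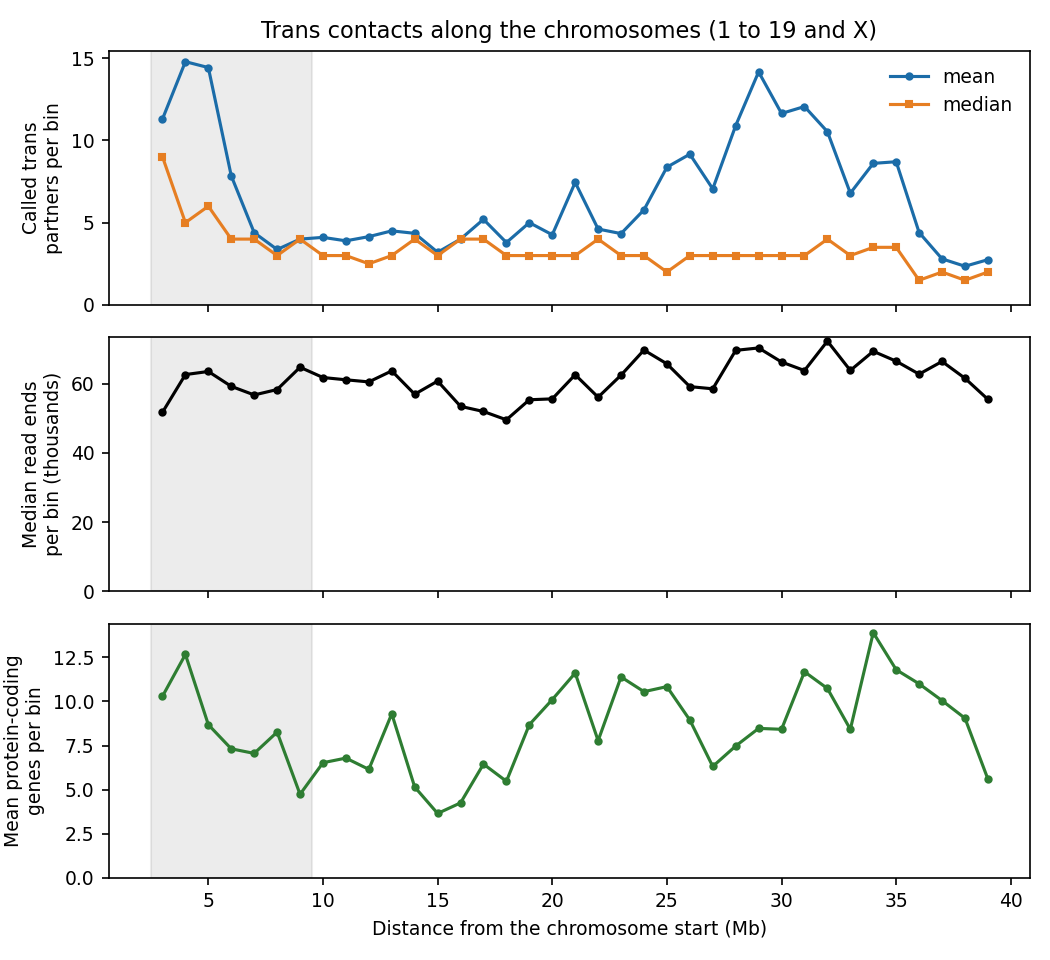
Called *trans*-chromosomal partners per bin (mean and median), median read ends per bin and mean protein-coding genes per bin against distance from the chromosome start, over chromosomes 1 to 19 and X. The shaded part is the window under 10 Mb. The median number of partners was 9 at 3 Mb and 3 at 29 Mb, where the mean was 14.2.

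By their symbols, the near bins held 10 of the 1113 olfactory receptor genes and 16 of the 255 vomeronasal receptor genes in listed bins, and 21 of the 368 genes named as zinc finger proteins. Of 21842 protein-coding genes 1098 were in near bins.

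The sex chromosomes gave the highest ratios among all members. Chromosome Y was listed only as bins at 0, 1 and 2 Mb, which the rule counts as near, although mm9 does not show how far they lie from the centromere. Its bin at 2 Mb, which holds the spermatogenesis gene *Rbmy1a1*, was joined to the bin at 120 Mb of chromosome X by 591 read pairs against 8.00 expected, a ratio of 73.9 (68.1 to 80.1). The bins at 1 Mb, with *Sry*, the testis-determining gene, and *Zfy2*, a zinc finger gene, and at 0 Mb, with *Kdm5d*, a histone demethylase gene, and *Uty*, met the same X bin with 61 against 1.85 (ratio 32.9) and 28 against 2.30 (ratio 12.1). Read ends in the X bin were few, at 17689, and its longest alignments to the 3 Y bins, at least 90% identical, were 7250, 6480 and 6422 bases, whose part in the counts was not tested. The highest ratio among pairs with 2 near bins also had a Y bin: 115 read pairs against 10.8 joined the bin at 2 Mb to that at 5 Mb of chromosome X, which holds the oocyte growth factor gene *Bmp15* (ratio 10.7, 8.82 to 12.8). Without chromosome Y, the share for 2 near bins was 1.91% and for 1 near bin 0.270%.

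After these, and outside the rule for naming since they were chosen once their values were seen, the next 3 pairs with 1 near bin by ratio are given. The bin at 3 Mb of chromosome 8 and the bin at 39 Mb of chromosome 17 had 114 read pairs against 10.3 (ratio 11.03). That of chromosome 4 and the bin at 90 Mb of chromosome 1, where *Ugt1a1*, which encodes the bilirubin-conjugating enzyme, and *Hjurp*, which encodes a chaperone of centromeric histone, start, had 129 against 13.6 (ratio 9.49). The bin at 8 Mb of chromosome 18 and the bin at 39 Mb of chromosome 13 had 123 against 13.7 (ratio 8.97). The longest alignments between these bins were 6898, 6439 and 7155 bases at 96.3%, 98.2% and 90.05% identity.

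Calls between 2 centromere ends in Promoter CHi-C, which the choice of members did not use, came mostly from a single place. Of 579 *trans*-chromosomal calls in mESCs, 34 joined 2 fragments under 10 Mb (5.87%, 4.23 to 8.09) and 70 had 1 such fragment (12.1%, 9.68 to 15.0). Taken singly, not as pairs, 4.94% of the 16265 listed baits and 4.93% of the 52640 listed fragments lay in the window. Of the 34 calls, 31 came from 2 baits in the bin at 3 Mb of chromosome 11, the promoter of *Sfi1*, which encodes a centrin-binding protein, with 26 calls (chr11:3091411-3099770) and that of *Gm11399* with 5 (chr11:3039562-3056799). Of these calls, 19 went to chromosome 8, and the read counts were 3 to 23. The same 2 baits also had calls outside the window, so their contacts were not particular to centromere ends. Both met chr5:33073917-33076763, with 64 reads for *Gm11399* and 34 for *Sfi1*, and *Sfi1* met several fragments of chromosome 14. Without all baits under 4 Mb of chromosome 11, an alternative that was chosen after the calls were seen, 3 of 532 calls joined 2 centromere ends, or 0.564% (0.192 to 1.64). An alignment of at least 100 bases and 90% identity was found between bait and other end for 3 of the 34, the longest of 154 bases.

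The 2 readouts could be compared for few of these calls, because the bin at 3 Mb of chromosome 11 was not in the Hi-C list. Of the 34 calls, 31 had a bait in that bin and so could not lie within a called Hi-C bin pair. Of the other 3, 2 lay within one. Both of these joined the start of chromosome 5 to chromosome 12, from the promoters of *1700012B15Rik* and of *Rab10*, a regulator of vesicle transport. Hi-C had 30 read pairs there against 12.8 expected. The remaining call joined *4930430E12Rik* on chromosome 4 to chromosome 14. Of the 70 calls with 1 near fragment, 26 lay within a called pair (37.1%, 26.8 to 48.9), although some of the 70 had a bait in the unlisted bin too. Of the 475 calls with none, 227 did (47.8%, 43.3 to 52.3). These counts do not measure how far the 2 readouts match between centromere ends.

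Of the bins under 10 Mb that hold assembled sequence, 11 did not occur in the list at all, namely those at 7 to 9 Mb of chromosome 7, 3 Mb of chromosome 11, 3 to 7 Mb of chromosome 14 and 3 and 4 Mb of chromosome X. Gaps took up at most 150000 bases of each. These bins were left out of the possible pairs, and with every bin that holds sequence counted, the share for 2 near bins was 1.60% against 0.216% for none. Read ends over the listed bins summed to 154765098, which is the depth behind every value of Hi-C given here.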

How the data were processed

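Hi-C was analysed in 1 library of mESCs and Promoter CHi-C in 2 pooled mESC replicates, and GM12878 data were not used. The authors mapped read pairs to mm9 with HiCUP, removed artefacts and duplicates, and called 1-Mb bin pairs with HOMER (version 4.7 in the submitters' processing notes, which also name Bowtie 1.1.0). The deposited count is the unnormalised number of read pairs joining 2 bins, and the expected read pairs are a signal that the authors computed with HOMER from coverage and distance. The deposited FDR is a p-value adjusted by HOMER, and the list reaches an FDR of 0.0976. The CHi-C score was computed by the authors with CHiCAGO on both replicates together, with calls from 5 upwards, and the deposited read count beside it is a weighted, rounded mean.

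*Trans*-chromosomal pairs, listed from both sides, were counted once, and pairs with an FDR under 0.05 were called. Shares of possible pairs of listed bins have Wilson 95% intervals, ratios exact Poisson intervals, and no test across conditions was possible with 1 library. The counting code was tested on simulated data. Bins were compared with minimap2 2.31 (asm20 setting, with alignments under 90% identity left out) and fragments with blastn 2.17.0, in Python 3.11.15 with pandas 2.3.3 and scipy 1.17.1. Gene starts came from the annotation of the same build.

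Named were the 10 called pairs with 2 near bins and the 3 with 1 near bin of highest ratio (at least 20 read pairs), the 10 near bins with the most called partners, those with none, the 5 pairs of chromosomes with the highest and lowest shares, up to 5 protein-coding genes per bin for a known role, and genes whose bait had a call joining 2 near bins. Members and lists were chosen with earlier results of these data known. Alternatives changed the FDR, the window, the bins or chromosomes included, a minimum of read pairs or of ratio, the possible pairs and the CHi-C calls counted.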

Additional observations from a re-analysis of the deposited data

How the results depend on the processing

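Pairs with 2 near bins had a higher share called than pairs with none in each of the 12 alternatives run on these classes, by 3.49 to 31.8 times, while pairs with 1 near bin were above pairs with none in 10 of them (0.656 to 1.89 times). Pairs of 2 rDNA bearing chromosomes were above pairs of 2 others in 3 of 17 alternatives (0.151 to 1.75 times). Of the recomputed values, 62 stayed within the interval of the reported value and 54 did not. The cause of the moves was not tested. Called pairs had at least 9 read pairs, so weaker contacts were below what this depth could call.

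In the order 2 near bins, 1 near bin and none, the shares were 1.04%, 0.139% and 0.112% with an FDR under 0.01, and 2.92%, 0.422% and 0.346% with every listed pair. They were 0.845%, 0.159% and 0.242% with a window of 20 Mb, 1.45%, 0.200% and 0.167% with a ratio of at least 2, and 1.60%, 0.245% and 0.216% with every bin that holds sequence. With a window of 5 Mb the first 2 were 7.17% and 0.428%, and without bins at 3 Mb the share for 2 near bins was 1.24%. For 1 near bin and none, the shares were 0.293% and 0.246% without chromosomes X and Y, and 0.298% and 0.248% without bins of extreme read ends. At least 20 read pairs gave 0.218% for none. Without the bins at 4 to 6 Mb of chromosomes 11 and 19, the share for 1 near bin was 0.158%, that for a near bin with one in the last 10 Mb 0.0214%, and with one in between 0.170%.

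For 2, 1 and 0 rDNA bearing chromosomes, shares were 0.816%, 0.795% and 1.25% with an FDR under 0.01, 12.5%, 6.43% and 7.16% at 5 Mb, 0.654%, 0.610% and 1.03% at 20 Mb, and 0.556%, 0.941% and 1.54% without bins at 3 Mb. Every listed pair gave 2.06% and 3.67% for 1 and 0. For 0, the share was 1.66% with a ratio of at least 2 and 1.81% with every bin that holds sequence. Leaving out each rDNA bearing chromosome gave 0.340% to 2.72% for 2 and 1.25% to 1.69% for 1.

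Median ratios of called pairs with 2 near bins and with 1 were 2.39 and 2.39 with an FDR under 0.01, 2.09 and 2.05 with every listed pair, and 2.32 and 2.29 with a ratio of at least 2. With 2 near bins the median was 2.41 at 5 Mb, 2.11 at 20 Mb and 2.07 without bins at 3 Mb, and with 1 it was 2.11 without the bins at 4 to 6 Mb of chromosomes 11 and 19. The CHi-C share was 0.564% without the baits under 4 Mb of chromosome 11. The settings without chromosome Y, without those bins and without those baits were chosen after seeing the data. No paired analysis was possible because Hi-C was 1 library and the CHi-C replicates were pooled in the deposited calls.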
